A study of Homo sapiens with 8 samples.

Results

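TFIID is the protein complex that finds the start sites of genes read by RNA polymerase II. It consists of the TATA-binding protein TBP and a set of TBP-associated factors, the TAFs, and 10 of these subunits were examined at the transcript level in DLD-1 cells that received miR-143. All probe sets annotated to one of the 10 genes and to no other gene were taken. This gave 19 probe sets for 9 genes, of 41091 single-gene probe sets for 19752 genes. TAF9 was listed as well, but its only probe set is shared with AK6, so it gave no value here. The choice of TAF10 was made with its lower value in these arrays already known, and the question was whether the other subunits moved with it. The values of TAF10 are therefore a description and no independent evidence, and the statistics printed for it are those of the comparison over all genes.

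DLD-1 is an established human colorectal adenocarcinoma line. The cells were grown in high glucose DMEM with fetal bovine serum and transfected with Lipofectamine 2000. One group of 4 cultures received 50 nM miR-143 duplex and the other group of 4 cultures was mock transfected, and RNA was taken after 24 h from both groups. Each culture was measured on its own Affymetrix HG-U133 Plus 2.0 array, on which a transcript is read by one or more probe sets. No array of a control duplex was used here, so the effect of miR-143 and that of any duplex cannot be told apart.

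Values are log2 levels made by the authors with RMA, a procedure that corrects, normalizes and summarizes the probes of a probe set, so that a difference of 1 between arrays is a doubling. Probe sets differ in how strongly they bind, so levels were set beside a median over probe sets or genes only to tell bright from dim ones, and not as amounts of transcript. Array medians lay between 7.15 and 7.24. An array gives no count, so the number of arrays and the level over background limit the precision. The 8 epithelial and colorectal markers examined all had means above the median gene mean of 7.56, with VIL1 closest to it at 7.60. Of 8 markers of blood, endothelial and fibroblast cells 2 did, COL1A1 at 8.14 and PECAM1 at 7.61. Both lay above VIL1. The mean level of the epithelial markers was 11.01 to 11.66 in miR-143 arrays and 11.18 to 11.70 in mock arrays, and that of the other markers 7.16 to 7.41 and 7.18 to 7.43. All 8 epithelial markers were lower on average with miR-143 (median log2 fold change −0.104), where 55.6% of all genes were. By limma without and with pairs 0 of 8 were called. An unadjusted p under 0.05 was found for 0 and 2 of them, and for 2.41% and 9.55% of all genes. The groups did not overlap for 1 of the 8, VIL1, by its brightest probe set. Over all single-gene probe sets, brightest of their gene or not, this was so for 2.03%. The part of these markers in the results was not tested. Replicate 4 of both groups stood apart on the first principal component, where the miR-143 array scored 25.7 and the mock array 26.7, while the other 6 arrays scored −18.8 to −4.3.

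A general account of the complex helps to read the values. TFIID binds the core promoter, loads TBP onto it and so allows the other general transcription factors and the polymerase to assemble. Many TAFs carry a histone fold and bind each other in pairs, and several of them, TAF10 included, are also subunits of SAGA, a coactivator that acetylates histones. A microRNA acts through base pairing of its seed, bases 2 to 8, with a target transcript. The sequences of both arms of the miR-143 hairpin are shown because the seed defines what the duplex can pair with, with the seed in capitals. They are from RefSeq, on the plus strand of GRCh38.p14, at chr5:149428978-149428998 for the 3p arm and chr5:149428944-149428965 for the 5p arm.
hsa-miR-143-3p: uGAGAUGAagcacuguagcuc
hsa-miR-143-5p: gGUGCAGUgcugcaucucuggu
The match to the seed of the 3p arm, followed by an A, reads TCATCTCA in a target. No transcript sequences were used here, so matches in the transcripts of the 9 genes were not counted.

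*TAF10* was lower in miR-143-transfected cells by its brightest probe set. TAF10 is a histone fold subunit that TFIID and SAGA share. In replicates 1 to 4 the log2 level of probe set 200055_at was 11.17, 11.01, 10.84 and 12.13 with miR-143 and 11.63, 11.81, 11.54 and 12.54 in mock. Each miR-143 array lay below the mock array of its own number, but the groups overlapped, since miR-143 replicate 4 lay above mock replicates 1 to 3. The differences were −0.46, −0.79, −0.70 and −0.40 for replicates 1 to 4. The mean was 11.29 ± 0.58 (SD, n = 4) with miR-143 against 11.88 ± 0.45 (SD, n = 4) in mock. The log2 fold change was −0.59, so that the level was 0.664 of that in mock. RNA came from whole cultures, so a lower level in every cell and a loss from some of the cells cannot be told apart.

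Whether this difference exceeded the spread between arrays depended on how replicate numbers were handled. With limma without pairs the 95% interval was −1.25 to 0.07 (standard error 0.295, adjusted p = 1.0 over all genes). With the replicate number as a pair it was −0.74 to −0.44 (adjusted p = 0.00197 from limma, standard error 0.068), and *TAF10* was called lower. Limma draws the variance of each gene toward that of all genes. Both standard errors are therefore smaller than the wide spread of *TAF10* alone would give, and the intervals narrower. Of all genes 0.623% were called lower with pairs, 0.167% higher and 0.79% in either direction. Without pairs 0 genes were called by limma in either direction (0.0%), and 477 genes (2.41%) had an unadjusted p under 0.05, 1.7% being lower and 0.714% higher. Replicate 4 lay above the mean of the other 3 arrays by 1.13 with miR-143 and by 0.88 in mock. When both arrays of replicate 4 were left out, *TAF10* was 10.84 to 11.17 with miR-143 and 11.54 to 11.81 in mock and the groups did not overlap. Over the same 6 arrays the groups did not overlap for 10.8% of all genes, 6.59% being lower with miR-143. The log2 fold change was then −0.65 without pairs (95% interval −0.85 to −0.45, adjusted p = 0.0201 from limma), and 0.152% of genes were called lower and 0.0658% higher. Leaving out mock replicate 4 alone, with miR-143 replicate 4 kept, gave −0.37 without pairs, and leaving out miR-143 replicate 4 alone gave −0.87, with adjusted p of 1.0 and 0.528 from limma.

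The spread of *TAF10* within groups was wide for this table. Its pooled standard deviation was 0.521, against a median of 0.112 over all genes and 0.0936 to 0.203 for the other 8 subunits, and 25 of 19752 genes had a larger one. The standard deviation of its 4 differences between arrays of the same number was 0.188. By size, its log2 fold change was the ninth most negative of all genes, since it ranked 9 from the lower end.

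The other 2 probe sets of *TAF10* did not show this difference. Probe set 235135_at was 7.38, 7.36, 7.16 and 7.33 with miR-143 and 7.32, 7.40, 7.43 and 7.28 in mock, with a log2 fold change of −0.05 (95% interval −0.19 to 0.09 by limma without pairs). Probe set 235906_at was 6.94, 6.98, 6.93 and 6.96 with miR-143 and 6.92, 7.02, 6.85 and 6.80 in mock, with a log2 fold change of 0.06 (95% interval −0.07 to 0.19). Their means of 7.33 and 6.92 lay just above and below 7.31, the median of all probe set means, whereas the bright probe set averaged 11.58. Both groups overlapped on each of them. With the mean over the 3 probe sets the log2 fold change of the gene was −0.20 (adjusted p = 1.0 from limma without pairs).

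**Figure D1:**
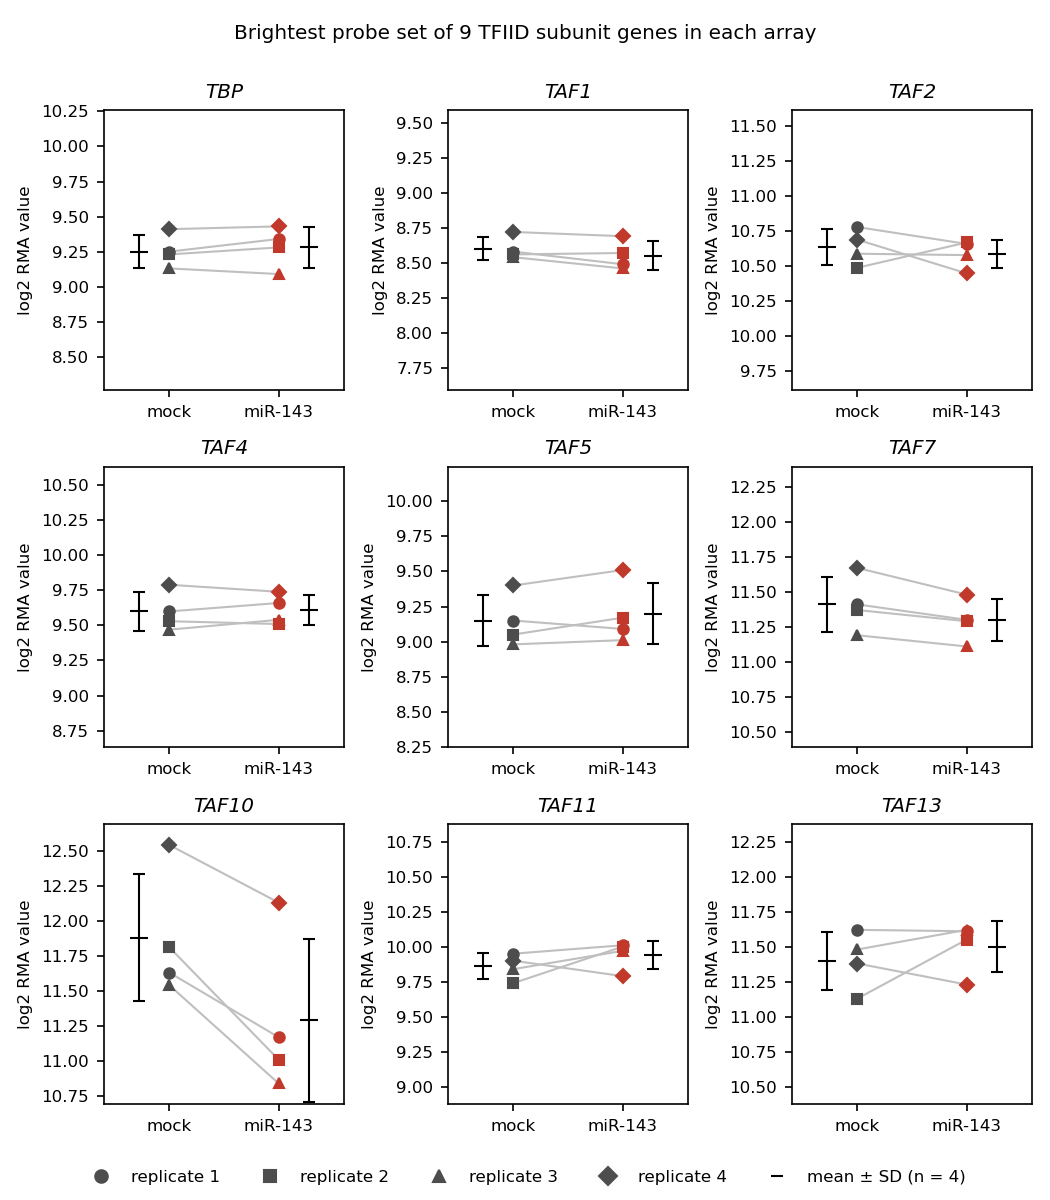
Log2 RMA value of the brightest probe set of 9 TFIID subunit genes in each array, with mock in grey, miR-143 in red, a symbol and a connecting line for each replicate number, and bars for the mean ± SD of 4 arrays. Every panel spans 2 log2 units, and TAF10 is lower with miR-143 in all 4 replicate numbers, from −0.79 to −0.40, while its replicate 4 is highest in both groups.

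None of the other 8 measured subunits was called in either direction by limma over all genes, with or without pairs. Over their brightest probe sets 3 had a negative and 5 a positive log2 fold change, from −0.115 to 0.099 with a median of 0.024, against a median of −0.009 over all genes, of which 55.6% were negative. The levels with miR-143 were thus 0.923 to 1.07 of those in mock. At an unadjusted p under 0.05 limma found 0 of the 8 without pairs and 1 with pairs, where all genes gave 2.41% and 9.55%. The adjusted p with pairs was 0.483 to 0.962. The 95% intervals, not adjusted for the number of genes, show the precision for these brightest probe sets. They reached from −0.359 to 0.364 without pairs and from −0.222 to 0.271 with pairs. The estimate for *TAF10*, −0.59, lay outside each of the 8, but *TAF10* was chosen with that value known. Its own interval without pairs, −1.25 to 0.07, overlapped those of the 8. Among the dimmer probe sets, the interval of 216955_at of *TAF1* reached 0.405 without pairs.

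TBP, which bends promoter DNA, was measured by 203135_at. Its log2 level was 9.34, 9.28, 9.09 and 9.43 with miR-143 and 9.25, 9.23, 9.13 and 9.41 in mock. Each miR-143 array of *TBP* lay within 0.09 of the mock array of its number. The log2 fold change was 0.03 (95% interval −0.16 to 0.23 by limma without pairs, −0.08 to 0.14 with pairs).

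The large subunits that build the frame of TFIID were near their mock levels. TAF1, the largest subunit, has bromodomains and contacts promoter DNA. Its brightest probe set, 227205_at, was 8.49, 8.57, 8.46 and 8.69 with miR-143 and 8.58, 8.56, 8.54 and 8.72 in mock, with a log2 fold change of −0.04 (95% interval −0.20 to 0.11 by limma without pairs). TAF1 had 2 dimmer probe sets, 216711_s_at and 216955_at, which were higher with miR-143 in all 4 replicate numbers. Of all genes 6.54% were higher in all 4 numbers by their brightest probe set, and 17.5% were higher in all or lower in all. The level of 216955_at was 7.25, 7.33, 7.28 and 6.91 with miR-143 and 7.14, 7.07, 7.17 and 6.77 in mock, a log2 fold change of 0.15 (adjusted p = 1.0 without pairs and 0.326 with pairs over all probe sets by limma). Replicate 4 was the lowest array of both groups on it, as for 23.8% of all genes, and its mean of 7.12 lay below the median of all probe sets. The 3 probe sets of TAF1 thus differed in sign, and for none of them was a change called.

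TAF2 contacts the initiator element of promoters. Its probe set 209523_at was 10.66, 10.67, 10.58 and 10.45 with miR-143 and 10.78, 10.49, 10.59 and 10.69 in mock. The arrays of replicate 2 differed by 0.18 upward and those of replicate 4 by −0.25, so the sign of the mean, −0.05 (95% interval −0.23 to 0.13 by limma without pairs), rested on replicate 4, and it was 0.013 without it. TAF4, a histone fold scaffold subunit on which the stability of the complex rests, was 9.66, 9.51, 9.54 and 9.74 with miR-143 and 9.60, 9.53, 9.47 and 9.79 in mock on 213090_s_at. Its log2 fold change was 0.01 (95% interval −0.17 to 0.20), and its dim second probe set gave −0.003. The sign of *TAF4* changed with the array left out.

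TAF5, a WD40 repeat scaffold protein, was 9.09, 9.17, 9.01 and 9.51 with miR-143 and 9.15, 9.05, 8.98 and 9.40 in mock on 210053_at. The log2 fold change was 0.05 (95% interval −0.22 to 0.33 by limma without pairs), and that of its second probe set, 1553528_a_at, was 0.08. In *TAF5* the spread between replicates was larger than the difference, with replicate 4 above the mean of the others by 0.42 with miR-143 and 0.34 in mock.

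*TAF7* came closest to *TAF10* in its pattern over replicate numbers, being lower with miR-143 in all 4 of them. TAF7 binds TAF1 and restrains its acetyltransferase activity. On 201023_at, its only probe set, the level was 11.30, 11.29, 11.11 and 11.48 with miR-143 and 11.41, 11.37, 11.19 and 11.67 in mock. The 4 differences lay between −0.189 and −0.079, and 10.9% of all genes were lower in all 4 numbers. The mean difference of −0.11 was smaller than the standard deviations of 0.152 and 0.198. Limma gave a 95% interval of −0.36 to 0.13 without pairs and of −0.22 to −0.01 with pairs, where the unadjusted p was 0.0381 and the adjusted p = 0.483, so no change was called.

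The histone fold partners TAF11 and TAF13 had the most positive log2 fold changes of the 9 genes by the brightest probe set. These proteins pair with each other and contact TBP. *TAF11* on 209358_at was 10.01, 10.00, 9.97 and 9.79 with miR-143 and 9.95, 9.74, 9.84 and 9.90 in mock, with a log2 fold change of 0.09 (95% interval −0.07 to 0.24 by limma without pairs). *TAF13* on 227278_at was 11.61, 11.55, 11.62 and 11.23 with miR-143 and 11.62, 11.13, 11.48 and 11.38 in mock, with a log2 fold change of 0.10 (95% interval −0.17 to 0.36). In both genes replicate 2 and replicate 3 were higher with miR-143 and replicate 4 was lower. The largest single difference among the 8 subunits was the 0.42 of *TAF13* in replicate 2, where mock was low. The further probe sets, 2 of *TAF11* and 1 of *TAF13*, had log2 fold changes of 0.031, −0.062 and 0.020.

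**Figure D2:**
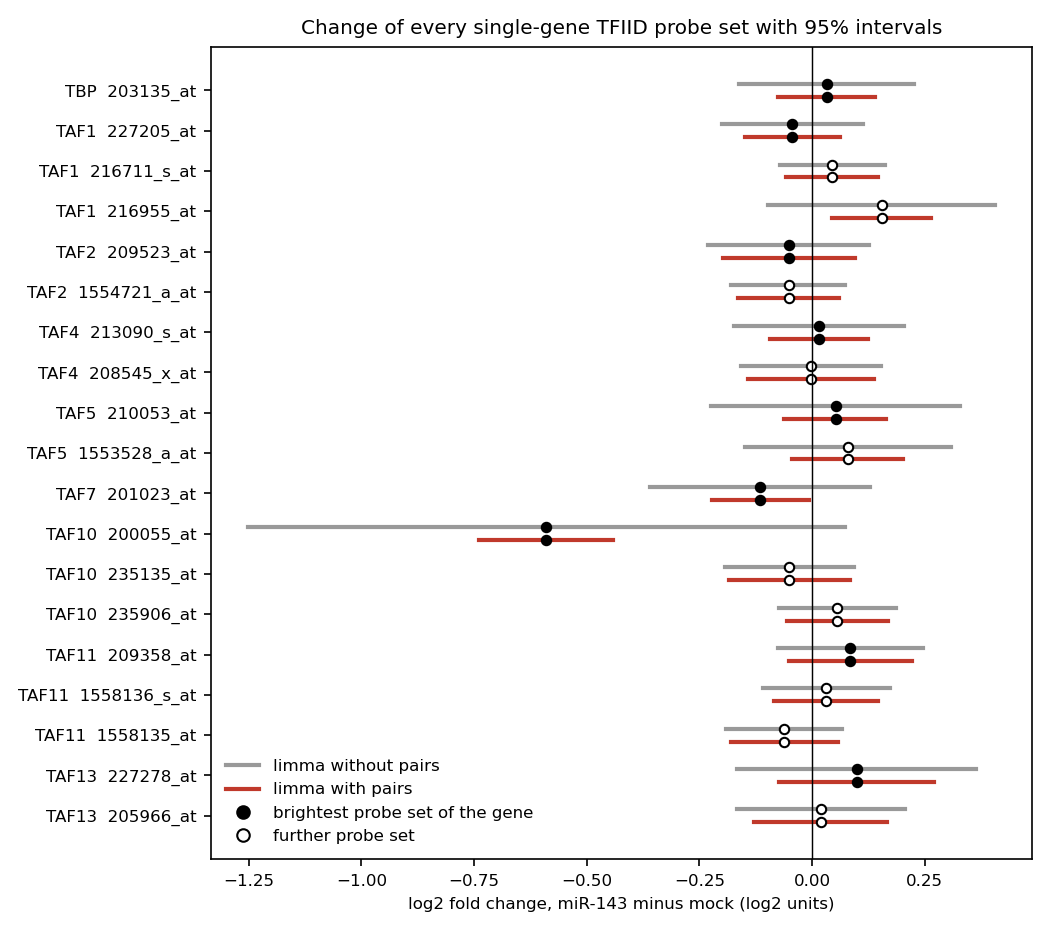
Log2 fold change (miR-143 minus mock) of all 19 single-gene probe sets of the 9 genes, with 95% intervals from limma without pairs in grey and with pairs in red, and filled points for the brightest probe set of each gene. The bright TAF10 probe set at −0.59 stands to the left of the others, which lie between −0.115 and 0.154, and its interval includes 0 without pairs but not with pairs.

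Over all 19 probe sets 8 had negative and 11 positive log2 fold changes. When each probe set was a feature of its own, limma called 0 of the 19 without pairs, where 1 of 41091 was called (0.00243%), and 0 of the 19 had an unadjusted p under 0.05 (2.57% of all). With pairs it called 1 of the 19, the bright *TAF10* probe set, where 0.416% of all probe sets were called lower, 0.11% higher and 0.526% in either direction. At an unadjusted p under 0.05 with pairs there were 3 of the 19, of *TAF10*, *TAF7* and *TAF1*, and 8.83% of all. In none of the 19 probe sets did all miR-143 arrays lie on one side of all mock arrays, as was the case for 2.03% of all probe sets. The 10 probe sets that were not the brightest of their gene ranged from −0.062 to 0.154, and 5 of them lay below the median level of all probe sets.

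**Figure D3:**
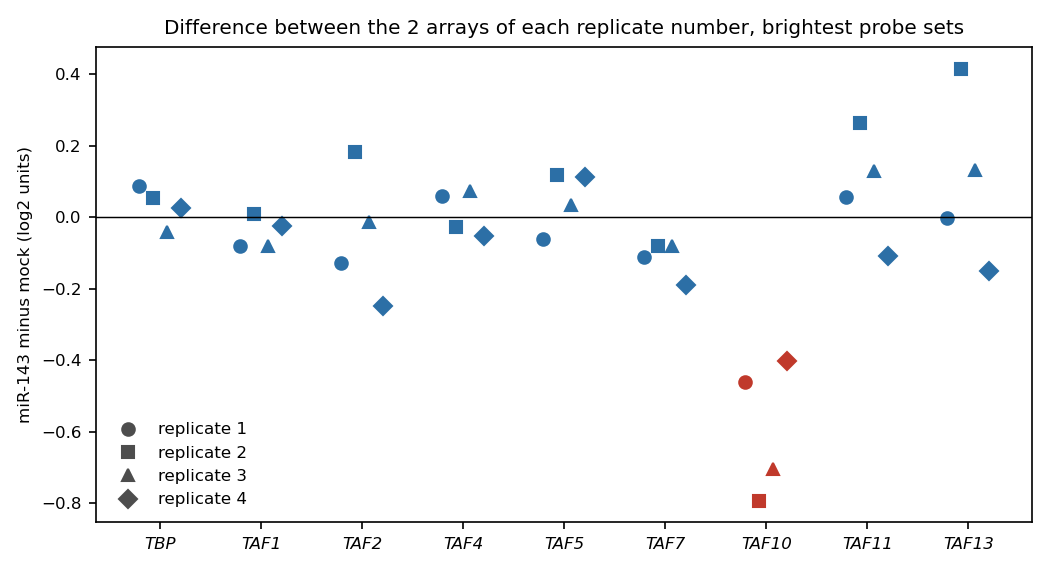
Difference in log2 level between the miR-143 and the mock array of each replicate number for the brightest probe set of each gene, with a symbol per replicate number and TAF10 in red. All 4 values of TAF10 lie at or below −0.40, those of TAF7 lie between −0.189 and −0.079, and those of the other 7 genes fall on both sides of 0, from −0.247 to 0.416.

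Replicate 4 was the highest array of both groups for *TAF10* and for 5 of the other 8 subunits by their brightest probe set, *TBP*, *TAF1*, *TAF4*, *TAF5* and *TAF7*, compared with 36.1% of all genes. For the remaining 3, *TAF2*, *TAF11* and *TAF13*, it was lowest with miR-143 but not in mock. The mean over the 8 other subunits was 10.02, 10.00, 9.92 and 10.04 in miR-143 replicates 1 to 4 and 10.04, 9.89, 9.90 and 10.12 in mock, so that the 2 groups overlapped. Along the 8 arrays *TAF10* followed *TAF1* and *TAF7* most closely among these subunits, with Pearson's r of 0.90 and 0.89, and ran against *TAF13* and *TAF11*, with −0.66 and −0.61. Without replicate 4 the values were 0.66 for *TAF1*, 0.66 for *TAF7*, −0.65 for *TAF13* and −0.78 for *TAF11* over 6 arrays. Those of *TBP*, *TAF4* and *TAF5* were 0.64 to 0.71 over 8 arrays and −0.08 to 0.12 over 6. These are descriptions with no test, and the arrays share the group difference and the offset of replicate 4.

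The 5 genes whose brightest probe set followed that of *TAF10* most closely, among 9875 other genes with a mean above the median, were *TMEM62*, *EXO1*, *ZBED3*, *LIF* and *PTBP3*. EXO1 is an exonuclease of DNA repair, LIF a cytokine and PTBP3 an RNA-binding protein. Pearson's r was 0.988 to 0.992 over 8 arrays and 0.962 to 0.982 over the 6 arrays without replicate 4. Their log2 fold changes were −0.13 for *TMEM62*, −0.19 for *EXO1* and −0.20 for *ZBED3*, and −0.32 for both *LIF* and *PTBP3*. With pairs limma called *LIF* and *PTBP3* lower (adjusted p = 0.0405 and 0.012), as it did 0.623% of all genes. It did not call *TMEM62*, *EXO1* or *ZBED3* (adjusted p = 0.434, 0.149 and 0.146). These values are a description, since the 5 genes were picked for following *TAF10*, its group difference included, over the same arrays. None of the 5 is a subunit of TFIID.

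The remaining subunits of TFIID were examined next, with the genes that work beside it at promoters. Of TAF3, TAF6, TAF8 and TAF12, 0 of 4 were called by limma with or without pairs. At an unadjusted p under 0.05 there were 0 without pairs and 1 with pairs, against 2.41% and 9.55% of all genes. TAF3 and TAF8 are the histone fold partners of TAF10. *TAF3* was 8.06 ± 0.13 (SD, n = 4) with miR-143 against 8.03 ± 0.14 (SD, n = 4) in mock, and *TAF8* was 7.56 ± 0.19 (SD, n = 4) against 7.60 ± 0.04 (SD, n = 4), with log2 fold changes of 0.03 and −0.03. Both were smaller than the spread between replicates. TAF12, the partner of TAF4 and also a SAGA subunit, had the lowest p of the 4, with a log2 fold change of −0.14 and lower values in all 4 replicate numbers (adjusted p = 1.0 without pairs and 0.413 with pairs from limma). Lower values in all 4 numbers were found for 10.9% of all genes.

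Paralogs are genes related to a TFIID subunit, and some of them replace it in some tissues or belong to SAGA. Of the 7 measured paralogs 5 were negative, and the median log2 fold change was −0.049. Limma called 0 without or with pairs (0 and 1 at an unadjusted p under 0.05). Among all genes 55.6% were negative, and 2.41% and 9.55% had an unadjusted p under 0.05 without and with pairs. TAF4B, a paralog of TAF4, had the lowest p, with 8.29 ± 0.16 (SD, n = 4) against 8.46 ± 0.19 (SD, n = 4) in mock, a difference of −0.17 (adjusted p = 0.211 with pairs). TAF9B, which closely resembles the unmeasured TAF9, was 10.12 ± 0.13 (SD, n = 4) and 10.17 ± 0.22 (SD, n = 4), a difference within the spread. Of 7 regulators of TBP and subunits of SL1, the TBP complex of RNA polymerase I, 6 were negative and the median was −0.046. Limma called 0 of these 7, and beside the same shares of all genes 0 and 2 of them had an unadjusted p under 0.05. TAF1A had the lowest p of them without pairs, with a log2 fold change of −0.16 (adjusted p = 1.0, and 0.495 with pairs), and TAF1D with pairs, with −0.12 (adjusted p = 0.486, and 1.0 without pairs).

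Of 17 measured general transcription factor genes, the elongation factor TCEA1 among them, 14 were negative, where 55.6% of all genes were. Their log2 fold changes ran from −0.205 to 0.101 around a median of −0.038. Limma called 0 with or without pairs, and at an unadjusted p under 0.05 there were 0 and 3, all lower, where 6.92% of all genes were lower at that limit with pairs. GTF2H5, the smallest subunit of TFIIH, had the lowest p, with 10.18 ± 0.07 (SD, n = 4) against 10.39 ± 0.21 (SD, n = 4) in mock, a difference of −0.20 (adjusted p = 0.248 with pairs). Of the 12 subunits of RNA polymerase II, 9 were negative, the range was −0.159 to 0.045 around a median of −0.045 and limma called 0. At an unadjusted p under 0.05 there were 0 and 1 without and with pairs, against 2.41% and 9.55% of all genes. POLR2B, the second largest subunit, had the lowest p, with a log2 fold change of −0.16 (adjusted p = 0.348 with pairs).

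SAGA shares TAF10 with TFIID, and 11 genes of its core and its acetyltransferase module were listed. Of these, 5 were negative and 6 positive, with a median of 0.010. Its other modules were not listed. TAF5L and TAF6L count here and among the paralogs. Limma called 0 with or without pairs, and at an unadjusted p under 0.05 there were 2 in each comparison, both higher, where 0.714% and 2.64% of all genes were higher. These were *KAT2B* and *TADA2B*. KAT2B, the acetyltransferase also known as PCAF, was 9.49 ± 0.05 (SD, n = 4) with miR-143 against 9.27 ± 0.18 (SD, n = 4) in mock, a difference of 0.22 (adjusted p = 1.0 without pairs and 0.182 with pairs). For TADA2B, an adaptor of the acetyltransferase module, it was 0.14 (adjusted p = 0.349 with pairs). Both genes were higher with miR-143 in all 4 replicate numbers, as were 6.54% of all genes, but the groups overlapped. Except for that of the paralogs, the medians of these lists changed sign when 1 of the 8 arrays was left out without pairs.

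**Figure D4:**
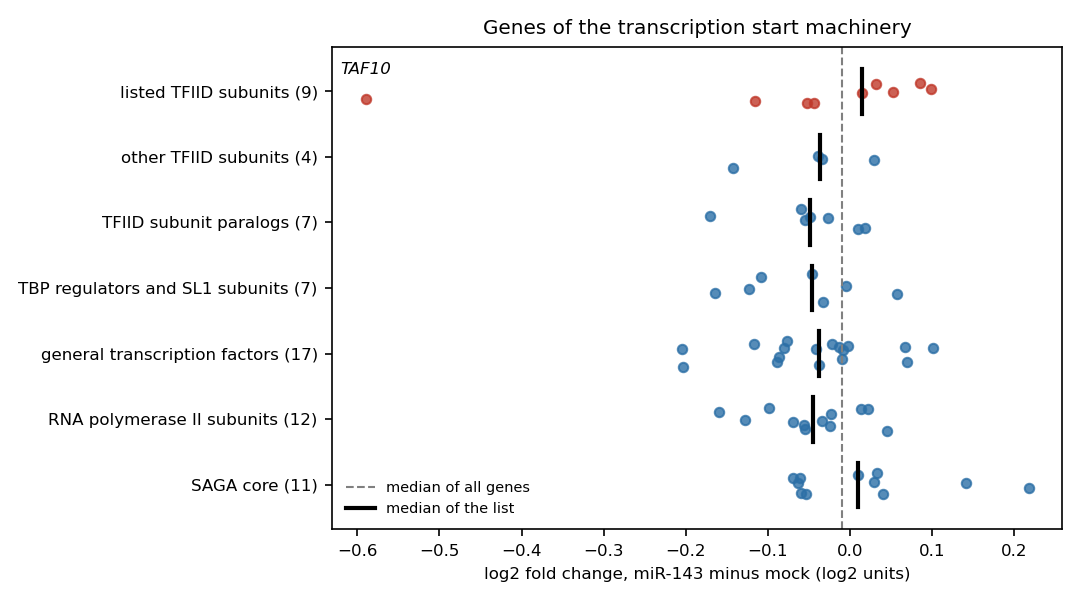
Log2 fold change (miR-143 minus mock) by the brightest probe set for 9 listed TFIID subunits (red) and for the genes of 6 further lists (blue), with the number measured in brackets, a black bar at the median of each list and a dashed line at the median of all genes, −0.009. TAF10 lies at −0.59, and every other gene shown lies between −0.205 and 0.218. The list labelled SAGA core also holds genes of the acetyltransferase module.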

How the data were processed

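RNA of 8 DLD-1 cultures, 4 with miR-143 duplex and 4 mock, was measured on Affymetrix HG-U133 Plus 2.0 arrays. The authors deposited log2 values made with RMA in the affy package (per the processing notes in the labels), with no version given, and these were used as deposited. RMA estimates levels over all arrays together, so the arrays are not fully independent. Probe sets were named from the platform annotation and updated by Entrez identifier or older symbol. Of 54675 probe sets, 41091 named one gene, 1801 several and 11721 none, and 62 were controls. The brightest probe set on average stood for each of the 19752 genes.

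Groups came from the sample titles. The methods call the 4 samples of a group biological replicates, all of 1 cell line. The p-values set a difference against the spread between these cultures, or with pairs against the spread of differences between arrays of the same number. Limma moderates that spread over all genes. Two-sided limma comparisons (version 3.58.1, R 4.3.3, lmFit and eBayes) ran over all genes, with Benjamini-Hochberg adjustment and a threshold of 0.05. The methods name limma and no block, so the main comparison had no pairs, and one with the replicate number as a block was run beside it. Nothing in the labels says what a number stands for. Within-group deviations of arrays with the same number correlated at 0.109, 0.166, 0.576 and 0.808 over genes, above the limit of 0.1, but at 0.0787 to 0.772 over all single-gene probe sets. With arrays of another number replicates 1 and 2 reached 0.538, above their own pairs, so the pairing rests on the data alone and is weak for these numbers. No filter was set on low levels. The members, lists and rules were chosen with earlier results of these data known. All members are named, with the lowest-p genes of each other list (with TAF1D added, lowest only with pairs), and KAT2B's companion TADA2B and the members TAF3, TAF8 and TAF9B of other lists were named after their values were seen. Tables used Python 3.11.15 and pandas 2.3.3. Alternatives were array weights, cyclic loess, other probe set choices, filters on level and variance, and arrays left out.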

Additional observations from a re-analysis of the deposited data

Results flagged for a closer look

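In 38 groups of 4 arrays (19 probe sets in 2 groups), 1 array lay apart from the other 3 by Dixon's measure, the gap to its nearest neighbour divided by the range. It was miR-143 replicate 4 on the brightest *TAF11* probe set, 209358_at, at 9.79 against 9.97 to 10.01 in the others, with a ratio of 0.831, just over the limit for 4 values. Chance alone gives about 1 such array in 20 groups. Mock replicate 4 was 9.90, inside the range of its group.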

How the results depend on the processing

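The log2 fold change of *TAF10* was negative under every alternative run. It was called with the replicate block (−0.59, adjusted p = 0.00197 from limma) and with both arrays of replicate 4 left out and no block (−0.653, adjusted p = 0.0201), and so 1 member and 1 member probe set were called lower under each of these. It was not called with array weights (−0.637, adjusted p = 0.152), cyclic loess (−0.521, adjusted p = 0.795) or the interquartile range filter (adjusted p = 0.996). With single arrays left out it ran from −0.872 to −0.37 and with replicate numbers 1 to 4 left out in turn, paired, it was −0.633, −0.522, −0.552 and −0.653 (adjusted p = 0.00653 to 0.022). The replicate block changed no other call among the members or lists. All genes called lower and higher were 0 and 0 in the main comparison, 123 and 33 with the replicate block, 36 and 20 with array weights, 31 and 22 with cyclic loess, and 30 and 13 without replicate 4. With a replicate number left out and pairs they were 57, 68, 33 and 42 lower and 16, 11, 9 and 16 higher for numbers 1 to 4, with 1 member lower each time. *TAF2* turned positive with array weights (0.003), cyclic loess (0.004) and without replicate 4 (0.013), and *TAF1* with the mean over its probe sets (0.051). With arrays left out the signs turned for *TAF4* (−0.029 to 0.079, and −0.001 and −0.005 without replicate numbers 1 and 3 in pairs), *TAF5* (−0.054 to 0.137), *TBP* (−0.018 to 0.098), *TAF13* (−0.007 to 0.189) and *TAF2* (−0.129 to 0.013). The variance filter removed 7 of the 9 genes, all but *TAF10* and *TAF13*, and every gene of the paralogs and of the 4 remaining TFIID subunits. The cause of these changes was not tested. The deposited values give no background level, so how far the dim probe sets, 2 of *TAF10* among them, lay above it is unknown.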
